A study of Homo sapiens with 30 samples.

Results

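The genes described here were close to silent in cells without p53 and had reads in every wild type p53 library at 24 h. They were chosen by raw counts: at most 3 in each of the 3 pGFP libraries at 24 h and at least 30 in each of the 3 wild type p53 libraries at 24 h. The counts covered 39359 genes, of which 59 met both limits, 8 were dropped by symbol (SLC2A5, LNCTAM34A, WNT7A, WNT7B, KCNS2, KCNK10, COL15A1 and COL4A1), and 51 remained. All 51 passed the filter on low counts, which kept 20875 genes. Because the levels with pGFP and wild type p53 at 24 h selected the genes, they are given as a description and were not tested, and no comparison tested below is between those groups. The fit across all 30 libraries did include those 6 in its filter and its estimate of the spread. A fit without them, added after the data were seen, kept all 51 genes past its filter, and its counts are given beside the main ones.

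H1299 is a lung carcinoma cell line that lacks functional p53. Cells were transfected with a plasmid that carried GFP alone (pGFP) or GFP with wild type p53, with the RW mutant p53, a substitution in the DNA-binding domain, or with wild type p53 sequence holding an O6-methylguanine in the transcribed strand at that same codon (p53 O6-meG). In p53 TM cells the O6-meG plasmid was combined with 10 uM O6-benzylguanine (O6bzG), which inactivates the enzyme that removes the methyl group, so that the lesion persists and RNA polymerase can misread it (transcriptional mutagenesis). No other group received O6bzG, so an effect of the drug itself cannot be told apart from that of the persisting lesion. GFP-positive cells were sorted at 6 h or 24 h, giving 10 groups of 3 libraries, and all p53 in them came from transient, vector-driven expression. The study's methods describe the replicates as biological triplicates, without saying what set them apart, and p-values measure the spread between these libraries. The second replicate of p53 TM and the second of p53 O6-meG, both sorted at 6 h, have titles that contradict themselves. The first part of each names the other of these groups, as does the matching column name of the deposited counts, and the parentheses and genotype field were followed here. The p53 O6-meG and p53 TM libraries at 6 h are therefore shown one by one. No comparison of those groups at 6 h uses the 2 that conflict, except in the alternatives. The main fit across all 30 libraries did include both as labelled, so they entered the shared estimate of the spread behind its p-values.

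As background, p53 is a transcription factor that binds DNA as a tetramer, at a response element made of a pair of decamer half-sites, and recruits the machinery that starts transcription. Its best known targets, such as CDKN1A and MDM2, are read at a basal level without it. Other targets lie in genes that a given cell type does not use, and some response elements are bound within closed chromatin. The 51 genes were close to silent by the counts that chose them, and whether p53 binds at them was not tested. Of them 43 coded for protein, 6 were long non-coding RNAs and 2 were pseudogenes. By role, assigned once the genes were known, 10 were transcription factors or their partners, 8 were receptors or channels, 4 were adhesion or membrane proteins, 5 were secreted, 4 were enzymes, 3 were intracellular signalling proteins, 6 were structural proteins, chaperones or regulators, 3 had no role assigned, and 8 were non-coding.

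Sequence near the gene starts was read for the p53 half-site, which is 3 purines, C, 2 bases that are A or T, G and 3 pyrimidines and reads the same on both strands. RefSeq promoter windows (GRCh38.p14, 250 bases before to 50 after the start) were matched for 32 of the 51 genes. A half-site was found in 4 of them (ANKRD65, NKX1-2, HEPACAM and ANGPT4), or 12.5%, beside 6.63% of all 35116 windows, and none held a pair of half-sites with a spacer of up to 13 bases. A wider search, added after that result was seen, took pairs without a spacer that kept the C and G of both centres and had at most 2 other mismatches, in hg38 around GENCODE v44 gene starts. The exact pair without a spacer was not found within 10 kb of the start of any of the 51 genes (0.251% of 20680 tested genes). With a spacer of up to 13 bases it lay within 10 kb of 2 genes, ANKRD65 and PROKR1 (3.92% beside 2.56%), within 5 kb of 1 (1.96% beside 1.31%) and within 2 kb of none (0.508% of tested genes). The pair with mismatches lay within 2 kb of the start of 4 of 51 genes (7.84%) beside 3.13% of 20680 tested genes, within 5 kb for 8 genes (15.7%) beside 7.81%, and within 10 kb for 13 genes (25.5%) beside 15.1%. Neighbouring genes can share a pair. A match is a description of letters and not a binding site. The pairs below are shown because they lie by genes whose time course or level stood out. Capitals mark the 4 bases at the centre of each half-site, and each is written on the strand of its gene:
ANKRD65, in an exon, chr1:1421482-1421501: aagCATGttcctgCTTGtcc
ANKRD65, upstream, chr1:1421827-1421846: agaCTTGccccagCCAGtcc
NHLH2, in an exon, chr1:115839414-115839433: cgaCATGcccggaCTTGgcc
PALMD, in an intron, chr1:99650866-99650885: aaaCAAGtgtaaaCTAGtct
CHRND, in an exon, and downstream of PRSS56, chr2:232528366-232528385: gaaCAAGttgagcCAAGccc
ENSG00000261804, in an intron, and upstream of ENSG00000262714, chr16:53378259-53378278: aaaCATGtcttaaCATGtct
SULF2, in an intron, chr20:47784913-47784932: gggCTTGtccgggCAGGact

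The pairs by PALMD and by the adjacent non-coding genes on chromosome 16 had 1 mismatch, and the others had 2. Distances from the gene start were 278 bases inside and 68 bases before for ANKRD65, 4762 bases inside for PALMD, 1694 bases inside for SULF2, 4494 bases inside for NHLH2, 2382 bases inside for CHRND and 4790 bases inside for ENSG00000261804. The RefSeq window of ANKRD65 (chr1:1421227-1421526, minus strand), whose RefSeq start lies downstream of the GENCODE start, is printed as the context of a gene that was nearly at its full level by 6 h. Capitals mark its single half-site:
ANKRD65 window: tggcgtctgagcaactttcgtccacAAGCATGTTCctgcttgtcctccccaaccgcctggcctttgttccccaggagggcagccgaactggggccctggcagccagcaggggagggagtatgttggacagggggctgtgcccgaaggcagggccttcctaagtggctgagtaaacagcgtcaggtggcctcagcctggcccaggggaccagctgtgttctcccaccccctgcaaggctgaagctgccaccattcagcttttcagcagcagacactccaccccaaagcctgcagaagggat

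Library totals ran from 32302699 to 71950532 counts. Epithelial KRT8 (111 to 181 CPM, read counts scaled to library size after TMM normalization), KRT18 (273 to 720 CPM) and mesenchymal VIM (1940 to 3580 CPM) were present in every library. Among markers of other cell types CD3E had no row, PTPRC and MYOD1 never passed 2 counts, and PECAM1, VWF and ALB reached at most 1 CPM. HBB was the exception at 162 to 1200 CPM, while HBA1 never passed 3 counts. The part of HBB reads in any result was not tested.

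Silence held in the control libraries that the choice did not use. In the 9 libraries of pGFP at 6 h and of RW mutant p53 at both times, 270 of the 459 values were 0 and 444 were at most 3 counts. The highest was 10, for ITIH5 in RW mutant p53 replicate 1 at 24 h. A set of 41 genes stayed at or below 3 counts in all 9, and 5 were at 0 throughout. Between RW mutant p53 and pGFP at 6 h no difference was detectable at this depth. The edgeR test called 0 of the 51 higher, and 1 gene (0.00479%) of 20875. No member had an unadjusted p under 0.05, and by DESeq2 0 were called and 1 had an unadjusted p under 0.05. LRRTM1, a synaptic adhesion protein, had the most reads at 6 h in these cells, with 2, 4 and 5 counts with RW mutant p53 and 1, 0 and 5 with pGFP.

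**Figure D1:**
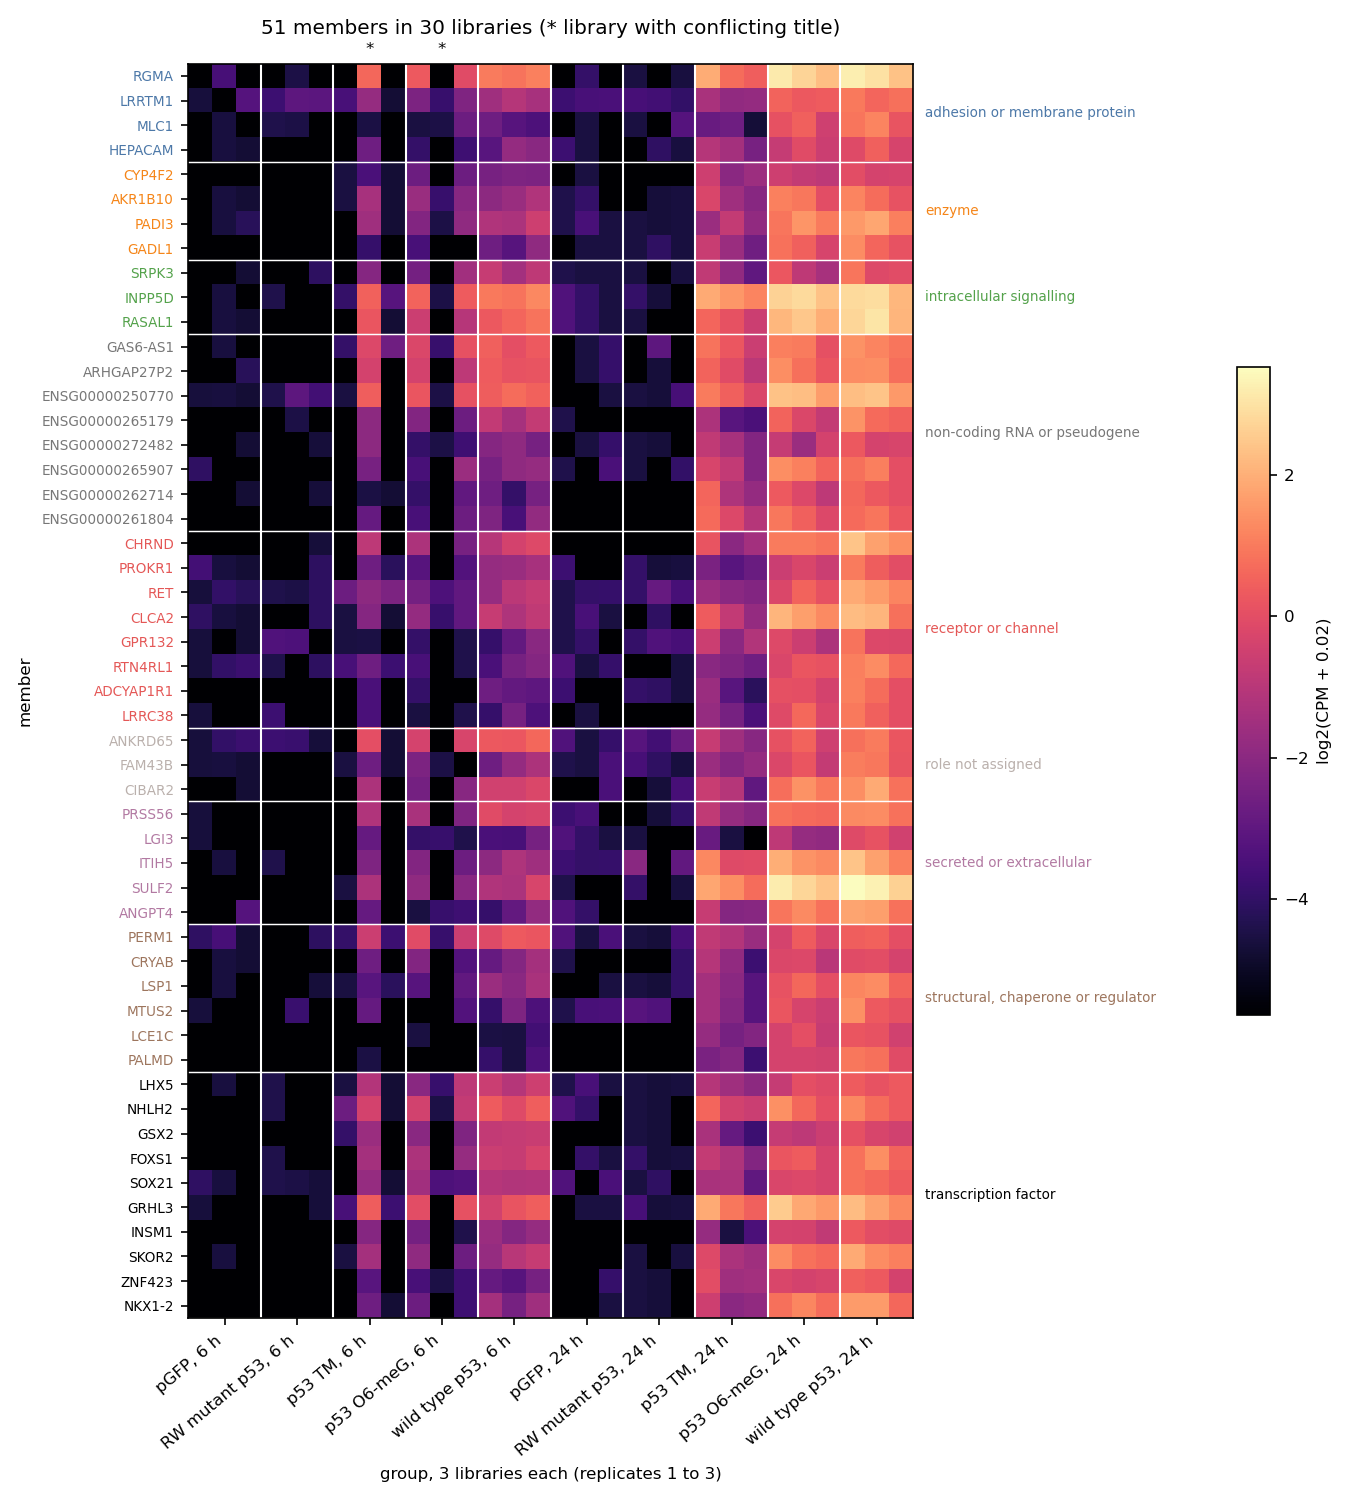
Level of each of the 51 genes (rows, coloured and grouped by role) in each of the 30 libraries (columns, 3 a group), as log2(CPM + 0.02). Columns of pGFP and RW mutant p53 are dark at both times, p53 TM at 24 h is intermediate, and the 2 starred libraries have conflicting titles.

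With wild type p53 at 24 h, the measure that chose the genes, the levels ran from 0.839 to 9.28 CPM with a median of 1.69. The genes just inside the limit were GSX2, LCE1C and LGI3, each with 30 counts in its lowest library, and ZNF423 with 31. Just outside were LCN15 with 29 counts, and ENSG00000268108 and SIDT1 with 28. GRIP2, PHLDA3 and LRFN5 were among those that fell outside by reaching 4 counts in a pGFP library. Replicate 3 was the lowest of the wild type libraries, with a median over the 51 genes of 71.1% of the group mean beside 120% and 107% for replicates 1 and 2.

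Wild type p53 had already switched on most of the genes at 6 h. Against pGFP at 6 h, 43 of 51 were called higher (adjusted p under 0.05 and at least 2-fold), beside 4.06% of the 20875 genes tested, and 0 were called lower. Without the 6 libraries that chose the genes 41 were called. A fit of only these 2 groups kept 29 of the 51 past its filter, where wild type p53 is the group with reads, and called all 29. As for p53 TM below, that filter made the calls likely in advance, so this count adds no support. In CPM every wild type library lay above every pGFP library for 50 of 51 genes, ANGPT4 being the exception, beside 20% of all genes. For the 36 genes with a count in pGFP the ratio of summed counts ran from 3.95 to 322 with a median of 26.1. For the other 15 it was at least 1.97-fold to at least 60.8-fold higher, at a floor of 3 counts over the pGFP group. These intervals and floors cover counting error only, and a larger share of cells that used a gene cannot be told apart from more RNA per cell. The level was still low, at a median of 19.1% of that at 24 h, with quartiles of 10.9% and 29.6%, although the level at 24 h chose the genes. The 8 not called were ANGPT4, ENSG00000262714, LCE1C, LGI3, LRRC38, MLC1, MTUS2 and PALMD.

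**Figure D2:**
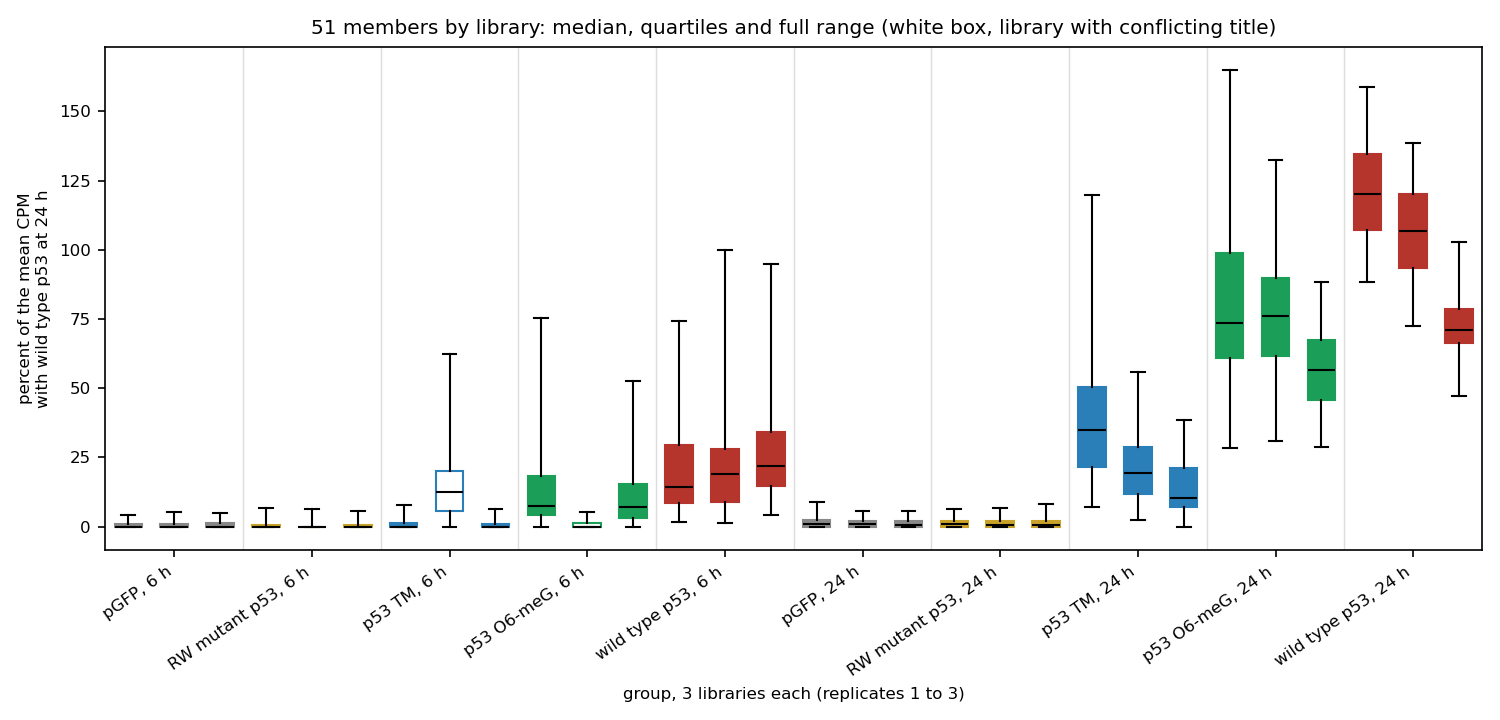
Level of the 51 genes in each library as a percent of each gene's mean CPM with wild type p53 at 24 h. Boxes show the median and quartiles, whiskers the full range, and white boxes the 2 libraries with conflicting titles. The median is 14.4% to 21.8% with wild type p53 at 6 h, 10.3% to 34.7% with p53 TM at 24 h and 56.4% to 76.1% with p53 O6-meG at 24 h.

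All 10 transcription factors were called at 6 h, and their median share of the 24 h level was 29.6%. GRHL3 (chr1:24199558-24364482), a regulator of epidermal differentiation, had 1, 0 and 0 counts with pGFP at 6 h and 31, 49 and 90 with wild type p53. That is a ratio of 168 (95% interval 29.7 to 6660, adjusted p = 0.0019). At 24 h GRHL3 had 3, 1 and 1 counts with RW mutant p53, 150, 82 and 75 with p53 TM, 199, 169 and 105 with p53 O6-meG and 193, 158 and 100 with wild type p53. NHLH2 (chr1:115836377-115843917), a neuronal basic helix-loop-helix factor, had no pGFP count at 6 h and 55, 40 and 90 with wild type p53, at least 60.8-fold higher (adjusted p = 0.00056). Its wild type level at 6 h was 67.5% of that at 24 h. LHX5 (chr12:113462033-113472280), a LIM homeodomain factor of the developing brain, had 0, 1 and 0 counts against 27, 20 and 45 (ratio 90.8, interval 15.9 to 3620, adjusted p = 0.00056). GSX2, a homeobox factor of the forebrain, had 24, 26 and 42 counts with wild type p53 at 6 h and none with pGFP, and stood at 69.7% of its 24 h level. INSM1, a zinc-finger factor of neuroendocrine cells, NKX1-2, a homeobox factor, and ZNF423, a zinc-finger factor, stood at 25.4%, 11% and 11.1% of their 24 h level, SKOR2, a corepressor, at 16.4%, and SOX21 and FOXS1 at 29.4% and 34.8%.

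Of the 8 receptors and channels 7 were called at 6 h, and their median share of the 24 h level was 12.6%. RET (chr10:43077064-43130351), the receptor tyrosine kinase for GDNF-family ligands, had 1, 2 and 2 counts with pGFP and 12, 22 and 40 with wild type p53 at 6 h (ratio 14.6, interval 5.98 to 46.3, adjusted p = 1.7e-05). At 24 h it had 149, 140 and 95 counts with wild type p53 but 29, 68 and 37 with p53 O6-meG, which is 37.3% of the wild type CPM and the lowest such share of the 51. CLCA2 (chr1:86424171-86456553), a regulator of chloride conductance in epithelia, had 26, 18 and 37 counts at 6 h and 192, 200 and 72 at 24 h with wild type p53. RTN4RL1, a Nogo receptor relative, had 3, 7 and 14 counts beside 1, 2 and 3 with pGFP at 6 h (ratio 3.95, interval 1.57 to 11.8, adjusted p = 0.047). Its adjusted p ran from 0.025 to 0.29 over the alternatives, and the call was lost under DESeq2, without the filter on low counts and without any one of pGFP replicates 1, 2 and 3 or wild type replicates 2 and 3 (0.19, 0.11, 0.089, 0.1 and 0.29). CHRND (chr2:232525993-232536667), the delta subunit of the muscle acetylcholine receptor, was at 0 in all 6 pGFP libraries. It had 20, 33 and 60 counts with wild type p53 at 6 h, at least 37.2-fold higher (adjusted p = 0.0047). ADCYAP1R1, the PACAP receptor, had 6, 5 and 7 counts at 6 h and 86, 76 and 42 at 24 h. PROKR1, a prokineticin receptor, GPR132, a G protein-coupled receptor, and LRRC38, an accessory subunit of potassium channels, stood at 22.1%, 10.8% and 6.52% of their 24 h level.

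The adhesion and membrane proteins included RGMA (chr15:93035271-93089211), a repulsive guidance molecule and BMP co-receptor. It had 0, 3 and 0 counts with pGFP and 86, 79 and 145 with wild type p53 at 6 h (ratio 102, interval 34.6 to 497, adjusted p = 0.0017), and 379, 368 and 219 with wild type p53 at 24 h. HEPACAM, a glial cell adhesion protein, and MLC1 (chr22:50059391-50085426), the astrocyte membrane protein it is known to escort, were both on the list. HEPACAM had 4, 12 and 15 counts with wild type p53 at 6 h and 36, 64 and 33 at 24 h. MLC1 had 6, 4 and 5 counts at 6 h and 74, 105 and 47 at 24 h. Its difference from pGFP at 6 h missed the threshold (adjusted p = 0.059) and passed it with the replicate block (adjusted p = 0.042). LRRTM1 had 14, 20 and 25 counts at 6 h (ratio to pGFP 9.7, interval 4.2 to 27.5, adjusted p = 0.00095).

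SULF2 (chr20:47656197-47786616), an extracellular sulfatase that trims heparan sulfate, reached the highest CPM of the secreted proteins and of all 51 genes. It had no count with pGFP at 6 h and 18, 17 and 55 with wild type p53, at least 29.6-fold higher (adjusted p = 0.0018). At 24 h wild type p53 gave 462, 460 and 267 counts, so that 5.8% of the 24 h level had been reached at 6 h. ANGPT4, an angiopoietin that binds TIE2, had 2, 5 and 18 counts at 6 h beside 0, 0 and 5 with pGFP, and the groups overlapped. It had 139, 148 and 75 at 24 h. ITIH5 (chr10:7559270-7666998), an inter-alpha-trypsin inhibitor heavy chain, had 10, 18 and 22 counts at 6 h beside 0, 1 and 0 (adjusted p = 0.0085, and 0.054 without pGFP replicate 3). PRSS56, a serine protease, had 40, 34 and 55 counts at 6 h and 97, 116 and 75 at 24 h. LGI3, a secreted leucine-rich repeat protein, had 3, 3 and 11 at 6 h.

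All 4 enzymes were called at 6 h. PADI3 (chr1:17249098-17284233), a peptidylarginine deiminase of hair follicle and epidermis, had 18, 17 and 46 counts with wild type p53 at 6 h beside 0, 1 and 2. CYP4F2, a fatty acid hydroxylase, had 7, 8 and 12 beside none. AKR1B10, an aldo-keto reductase, and GADL1, an amino acid decarboxylase, had 10, 13 and 29 and 6, 4 and 17. The signalling proteins were all called too. INPP5D (SHIP1, chr2:233059967-233207903), the inositol phosphatase best known from blood cells, had 0, 1 and 0 counts with pGFP and 84, 79 and 163 with wild type p53 at 6 h. Its ratio of 322 (interval 57.3 to 12700, adjusted p = 0.0004) was the highest at 6 h among genes with a pGFP count. RASAL1, a Ras GTPase-activating protein, had 51, 65 and 122 counts beside 0, 1 and 1. SRPK3, a muscle kinase of splicing factors, had 26, 15 and 36 beside 0, 0 and 1.

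The structural proteins and regulators held both ends of the time course. PERM1 (chr1:975198-982117), a regulator of muscle mitochondrial genes, had 39, 55 and 78 counts with wild type p53 at 6 h and 53, 65 and 43 at 24 h. In CPM this was 1.1 ± 0.174 (SD, n = 3) and 1.25 ± 0.203, or 88.2%, the highest such share. PALMD (chr1:99646113-99694541), a palmdelphin, and LCE1C, a cornified envelope protein, had the lowest shares. PALMD had 2, 1 and 5 counts at 6 h and 76, 80 and 39 at 24 h (3.14%), and LCE1C had 1, 1 and 4 and then 46, 50 and 30 (3.57%). CRYAB, a small heat shock protein, stood at 25.2%, LSP1, an actin-binding protein of leukocytes, at 14.5%, and MTUS2, a microtubule-associated protein, at 6.13%. LSP1 had 13, 10 and 26 counts with wild type p53 at 6 h beside 0, 1 and 0 with pGFP (adjusted p = 0.00052). Among the genes with no role assigned, ANKRD65 (chr1:1418420-1421769) had 51, 51 and 103 counts at 6 h and 68, 91 and 48 at 24 h, or 80.4%. CIBAR2 had 30, 31 and 58 at 6 h and 102, 172 and 74 at 24 h. FAM43B had 6, 12 and 27 and then 81, 88 and 47.

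Of the 8 non-coding genes 7 were called at 6 h. The transcribed pseudogene ENSG00000250770 (chr12:3298210-3337202) had 1, 1 and 1 counts with pGFP at 6 h and 56, 72 and 95 with wild type p53 (ratio 73.3, interval 24.8 to 358, adjusted p = 0.0015). Per length it was the highest of the 51 with p53 O6-meG at 24 h, at 6.03 CPM per kb of exon, ahead of ARHGAP27P2 at 2.67, CIBAR2 at 1.13 and LCE1C at 1.1. SULF2 followed at 1.01 CPM per kb. GAS6-AS1 had 58, 45 and 85 counts at 6 h and 108, 104 and 77 at 24 h with wild type p53. It runs antisense to GAS6, which had 1242, 986 and 1277 counts with pGFP at 6 h, where GAS6-AS1 had 0, 1 and 0, and 1458, 1326 and 2379 with wild type p53. The libraries were made with a stranded kit, and the sources used here do not say whether the counting used strand. In all, 21 of the 51 genes overlapped another gene of the table, 14 of them on the opposite strand.

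**Figure D3:**
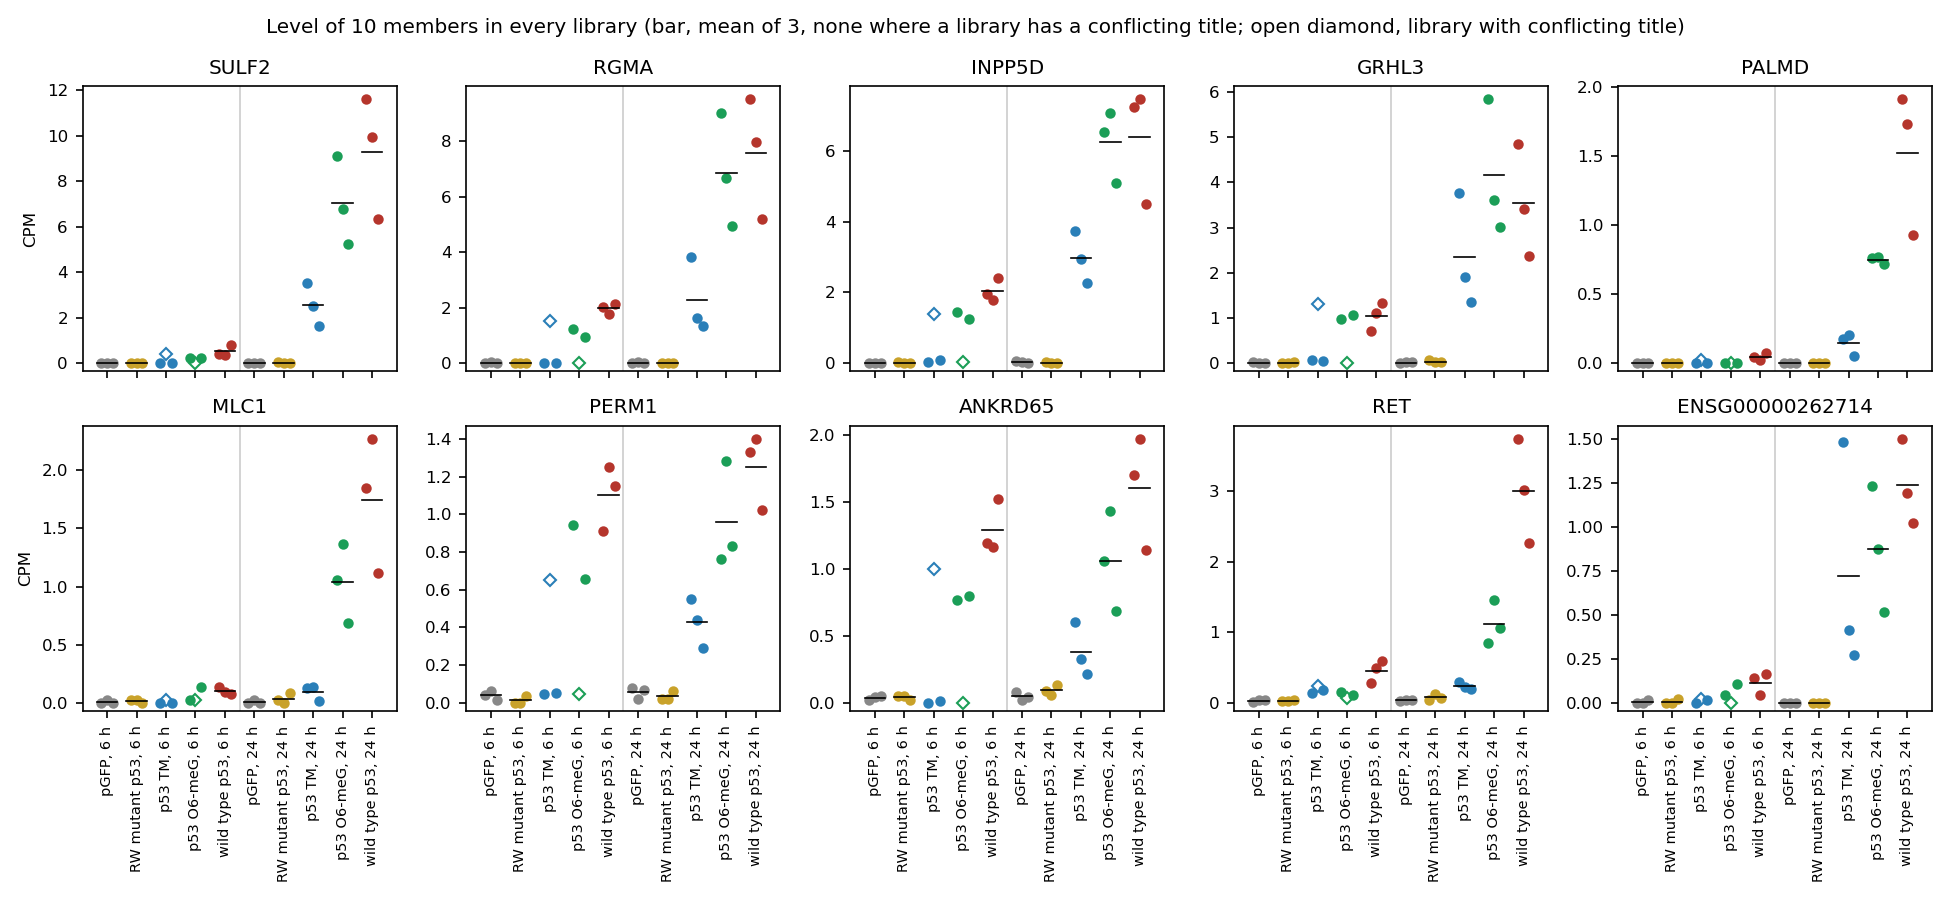
CPM of 10 of the genes in every library (dots, coloured by group, with a bar at the mean of 3 libraries; each panel has its own axis). PERM1 and ANKRD65 were near their 24 h level at 6 h, PALMD, MLC1, SULF2 and RET were not, and ENSG00000262714 has its highest p53 TM library above all p53 O6-meG libraries at 24 h.

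At 24 h, p53 O6-meG switched on every one of the genes. Against RW mutant p53, 51 of 51 were called higher, beside 7.27% of 20875 genes, and the count was 51 in every alternative run. For 41 genes with a count under RW mutant p53 the ratio ran from 10.1 to 663 with a median of 48.5, and for 10 it was at least 27.5-fold to at least 96.5-fold. RASAL1 had 1, 0 and 0 counts with RW mutant p53 and 150, 260 and 137 with p53 O6-meG (ratio 663, interval 118 to 26200, adjusted p = 5.3e-06). GPR132 had the lowest ratio, with 2, 4 and 3 counts against 30, 31 and 14 (ratio 10.1, interval 5.05 to 22.9, adjusted p = 0.00014). Side by side with wild type p53, which chose the genes, the CPM with p53 O6-meG was a median of 71.3%. It exceeded 100% for 3 genes, ENSG00000265907 (127%), GRHL3 (117%) and AKR1B10 (101%).

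The rise of p53 O6-meG cells from 6 h to 24 h was tested after the data had been seen, with the 2 conflicting libraries left out. Of 51 genes 48 were called higher at 24 h, beside 10.9% of 21335 genes, and the median log2 difference was 3.12 beside 0.03 over all genes. SULF2 went from 11 and 8 counts at 6 h to 310, 318 and 183 (ratio 29.8, interval 19 to 49.8, adjusted p = 1.1e-07). RTN4RL1 went from 3 and 1 to 28, 54 and 38, and RASAL1 from 29 and 17 to 150, 260 and 137. PALMD had no count at 6 h and 26, 36 and 25 at 24 h, at least 20.3-fold higher. The 3 genes not called were those whose groups lay closest. PERM1 had 42 and 24 counts at 6 h and 26, 60 and 29 at 24 h (ratio 1.22, interval 0.892 to 1.67, adjusted p = 0.55). ANKRD65 had 34 and 29 and then 36, 67 and 24 (ratio 1.41, interval 1.03 to 1.94, adjusted p = 0.3), and GAS6-AS1 had 38 and 39 and then 72, 93 and 36 (adjusted p = 0.12).

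With p53 TM at 24 h the genes were on, but at a lower level. Against RW mutant p53, 43 of 51 were called higher, beside 2.65% of 20875 genes. An unadjusted p under 0.05 was found for 48 of the 51, beside 4150 of the 20875 genes. INPP5D had 2, 1 and 0 counts with RW mutant p53 and 148, 127 and 125 with p53 TM (ratio 135, interval 46 to 659, adjusted p = 0.0002). SULF2 had 2, 0 and 1 against 140, 110 and 91 (ratio 115, interval 39.2 to 563, adjusted p = 7.7e-05). The 8 not called were ADCYAP1R1, ANKRD65, GSX2, INSM1, LGI3, MLC1, MTUS2 and PROKR1. MLC1 had 1, 0 and 4 counts with RW mutant p53 and 5, 6 and 1 with p53 TM, and the groups overlapped. Replicate 1 of p53 TM was the highest, with a median over the genes of 34.7% of the wild type level beside 19.5% and 10.3%. Without it 25 were called, and without the 6 libraries that chose the genes 39. A fit of only the groups compared kept 23 genes past its filter, where p53 TM is the group with reads, and called all 23. That filter made the calls likely in advance, so this count adds no support.

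The level with p53 TM was below that with p53 O6-meG in all 51 genes, by means. These groups differ by O6bzG, so misread p53 and the drug itself cannot be told apart. At 24 h 26 were called lower, beside 1.16% of the 20875 genes, and 0 were called higher. An unadjusted p under 0.05 was found for 39 of the 51, beside 4541 of the 20875 genes. The median log2 difference was -1.78 beside -0.01 over all genes, and the median level was 29.7% of that with p53 O6-meG, from 9.08% to 82.7%. Every p53 TM library lay below every p53 O6-meG library for 40 genes, beside 11.3% of all genes. This count of calls moved with single libraries and with the 2 of conflicting title, which the main fit held as labelled. It was 15 without p53 O6-meG replicate 1 or replicate 2, 13 without p53 TM replicate 2, 14 without p53 TM replicate 3, and 14 in a fit of only the groups compared. It was 30 without p53 TM replicate 1, 38 with the libraries of conflicting title left out, 28 with the replicate block and 23 without the 6 libraries that chose the genes. DESeq2 called 5, and gave no adjusted p for 17 of the 26.

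RET was the clearest of these, with 12, 10 and 11 counts with p53 TM and 29, 68 and 37 with p53 O6-meG (log2 difference -2.22 ± 0.3 SE, adjusted p = 0.00054). RTN4RL1 had 9, 8 and 8 against 28, 54 and 38 (-2.47 ± 0.38, adjusted p = 0.00098). MLC1 had the lowest share, 5, 6 and 1 against 36, 64 and 24 (-3.52 ± 0.55, adjusted p = 0.001). LSP1 had 14, 10 and 5 against 37, 70 and 35 (-2.47 ± 0.42, adjusted p = 0.0015), and LRRTM1 had 15, 11 and 15 against 49, 56 and 44 (-2.11 ± 0.39, adjusted p = 0.0028). In these 5 genes no p53 TM library reached a p53 O6-meG library in counts. By role, 6 of the 8 receptors and channels were called lower with p53 TM, 3 of 4 enzymes, 4 of 6 structural proteins and regulators, 3 of 5 secreted proteins, 2 of 4 adhesion proteins, 1 of 3 signalling proteins, 3 of 10 transcription factors and 2 of 8 non-coding genes. The median share of the p53 O6-meG level was 19.8% for receptors and channels, 36.5% for transcription factors and 60.9% for non-coding genes.

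At the other end, 7 genes stood above 60% of the p53 O6-meG level: ENSG00000262714, ENSG00000261804, GAS6-AS1, ZNF423, CYP4F2, ENSG00000272482 and GPR132. Without p53 TM replicate 1, but with all 3 p53 O6-meG libraries as the divisor, none of the 51 did. The shares of ENSG00000262714, ZNF423 and CYP4F2 were then 39.4%, 42.3% and 45.8% instead of 82.7%, 69.5% and 68.9%. Same-numbered libraries 2 and 3 gave 47.5% and 52.8% for ENSG00000262714, 43.3% and 43% for ZNF423, and 40.1% and 59.9% for CYP4F2. They gave 63.6% and 52.8% for ENSG00000261804 and 58.2% and 61.6% for GAS6-AS1. For ENSG00000272482 and GPR132 they gave 124% and 26.8%, and 34.9% and 109%. ENSG00000262714 (chr16:53386944-53389085) had 59, 18 and 15 counts with p53 TM and 42, 41 and 18 with p53 O6-meG (-0.31 ± 0.49, adjusted p = 0.77). CYP4F2 had 27, 10 and 17 against 23, 27 and 18 (-0.56 ± 0.43, adjusted p = 0.49). GRHL3 stood at 56.4% (-0.84 ± 0.6, adjusted p = 0.45). SULF2 was at 36.5% with non-overlapping libraries (-1.46 ± 0.45, adjusted p = 0.055), and SOX21 at 35.5% (adjusted p = 0.084). Both passed with the replicate number as a block, at adjusted p = 0.03 and 0.047.

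**Figure D4:**
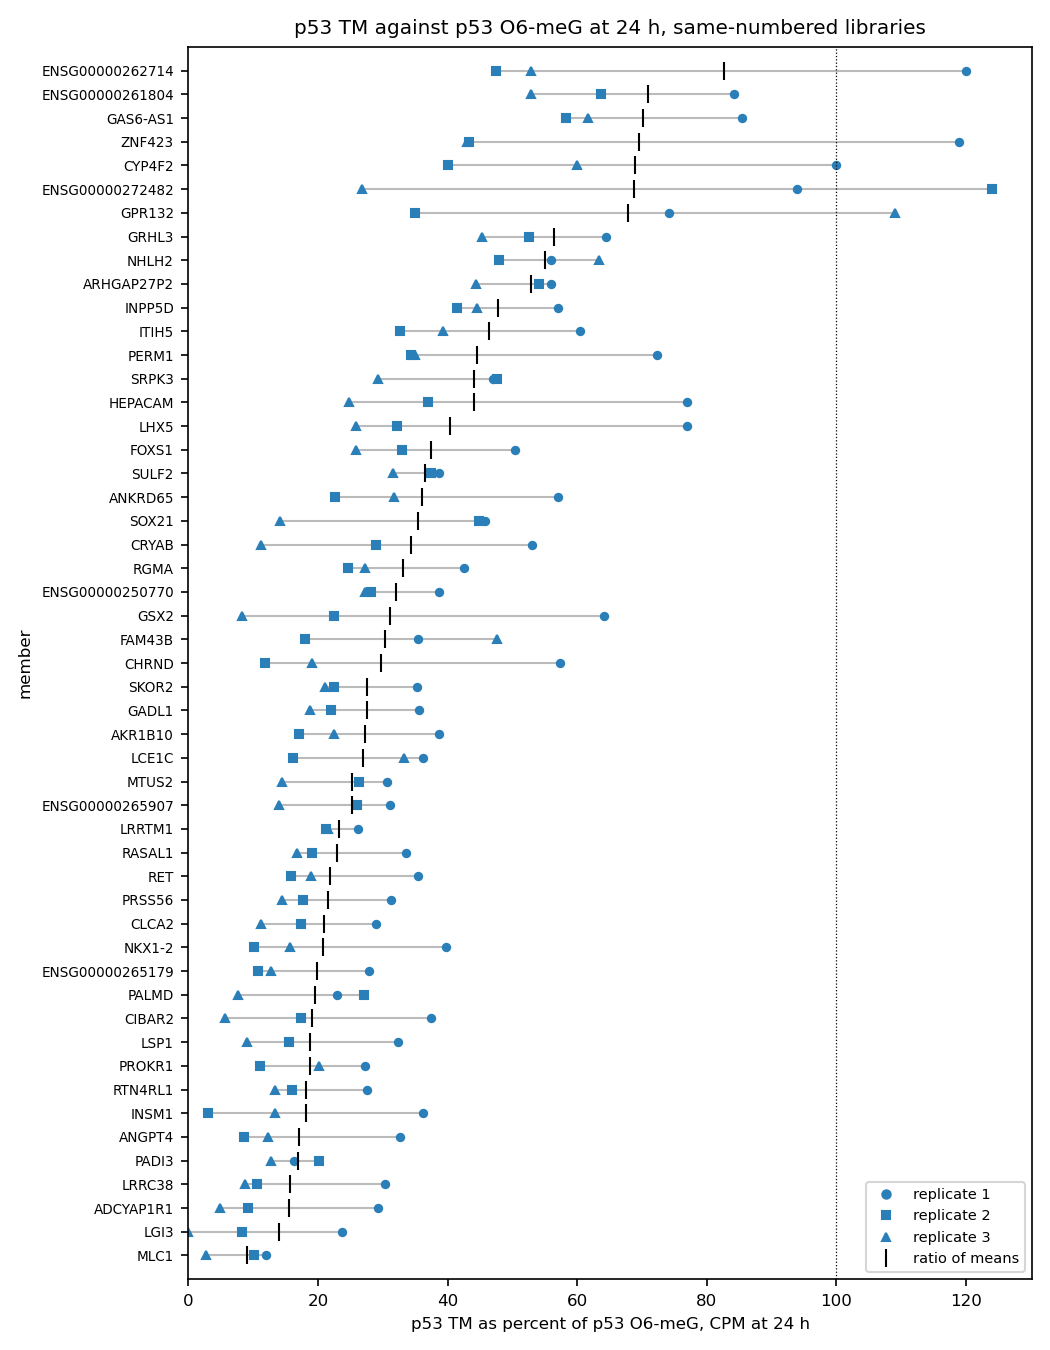
CPM with p53 TM as a percent of CPM with p53 O6-meG at 24 h for each of the 51 genes, by same-numbered libraries (circle, square and triangle for replicates 1, 2 and 3) and as a ratio of means (bar). The dotted line marks equal levels, and MLC1 at 9.08% and ENSG00000262714 at 82.7% are the ends.

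The early share and the p53 TM share use different libraries, though same-numbered libraries at 24 h deviated together. The early share divides by wild type p53 at 24 h, which chose the genes, so its low values were partly set by the choice. The genes spread widely over both shares. PERM1 (88.2% early, 44.6% with p53 TM), ANKRD65 (80.4% and 36%), GSX2 (69.7% and 31.1%) and NHLH2 (67.5% and 55.1%) had the highest early shares. ENSG00000262714 (9.36% and 82.7%) and ZNF423 (11.1% and 69.5%) had low early shares. By same-numbered libraries their p53 TM shares were 120% and 119% in replicate 1 and 43% to 52.8% in replicates 2 and 3. PALMD, ANGPT4, LRRC38, ADCYAP1R1, RTN4RL1 and MLC1 were late and low, each under 8% early and under 20% with p53 TM.

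**Figure D5:**
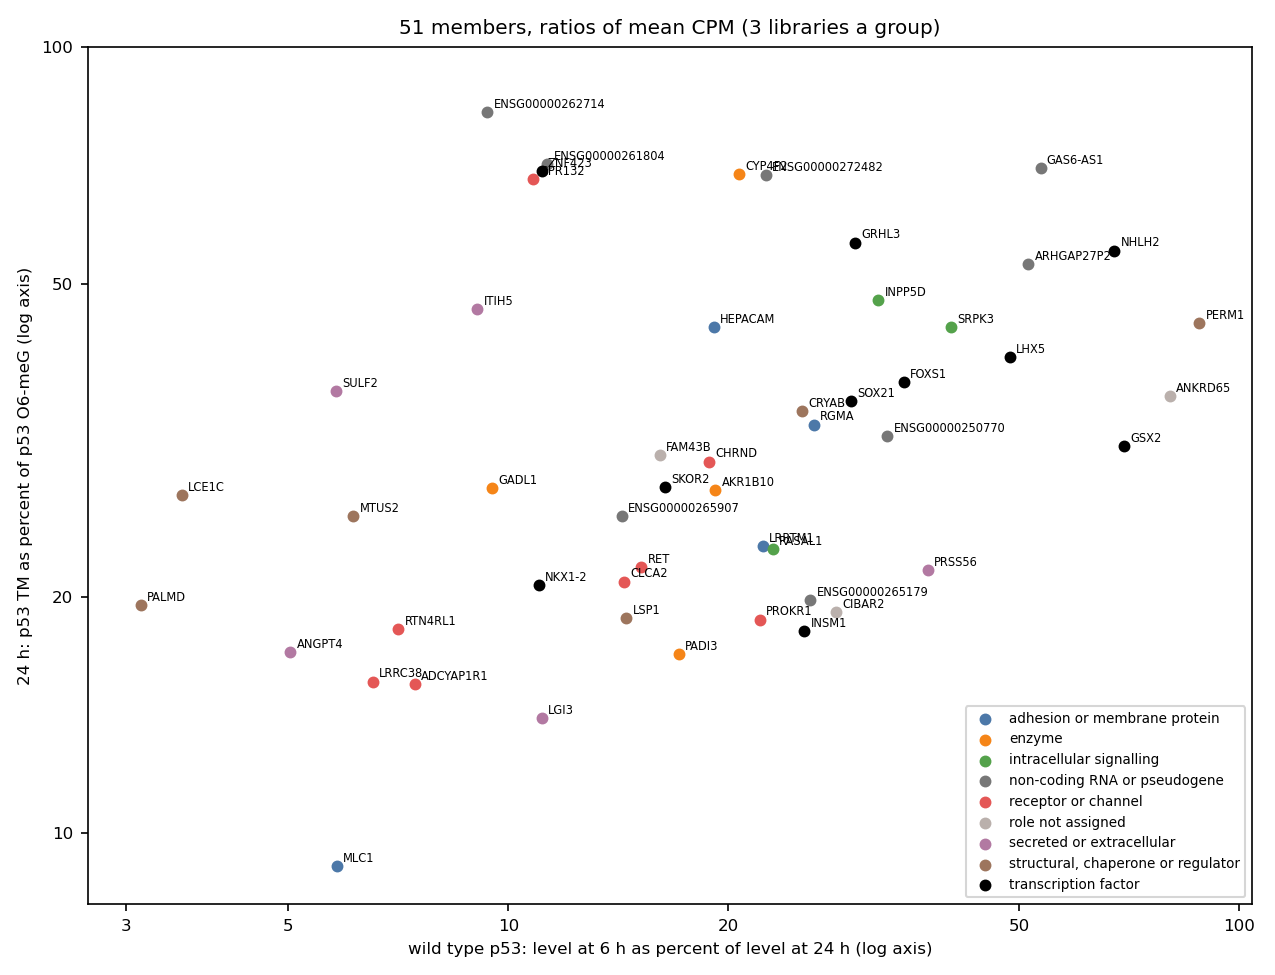
For each of the 51 genes, the level with wild type p53 at 6 h as a percent of that at 24 h (horizontal, log axis) against the level with p53 TM as a percent of p53 O6-meG at 24 h (vertical, log axis), coloured by role. Transcription factors lie between 11% and 69.7% on the horizontal axis, and receptors and channels between 6.52% and 22.1%.

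At 6 h the 2 libraries with conflicting titles stood apart from the others with their label. In summed counts over the 51 genes, each lay with the group named by the first part of its title and by its column. The labels were not tested. In the library labelled p53 O6-meG replicate 2 all 51 genes had at most 3 counts, with 30 counts in all, while replicates 1 and 3 held 688 and 492. The library labelled p53 TM replicate 2 held 800 counts and only 9 genes at or under 3, while replicates 1 and 3 held 39 and 49. INPP5D showed it gene by gene, with 64, 1 and 46 counts in the libraries labelled p53 O6-meG and 2, 60 and 5 in those labelled p53 TM. RET had 7, 3 and 4 counts and 6, 10 and 10. It was read in all 6 libraries, and its highest were labelled p53 TM. Outside the 51 genes, CDKN1A had 268, 50 and 261 CPM in the libraries labelled p53 O6-meG and 65.7, 249 and 57.7 CPM in those labelled p53 TM, so that both replicates 2 stood apart there too.

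Some of the genes were neighbours of each other or of other responding genes. A set of 10 of 51 (19.6%) lay within 10 kb of another of the 51 or of a gene called higher with wild type p53 at 6 h, beside 5.03% of 20680 tested genes. PRSS56 and CHRND lie 277 bases apart on the same strand of chromosome 2, and ENSG00000261804 and ENSG00000262714 lie 1802 bases apart on the same strand of chromosome 16. Both of the latter were at 0 in all pGFP and RW mutant p53 libraries at 24 h. With p53 TM at 24 h they had 64, 37 and 25 counts and 59, 18 and 15, so that both were highest in replicate 1. SRPK3 overlaps PLXNB3, a plexin, on the same strand. PLXNB3 had 6, 7 and 5 counts with pGFP and 477, 442 and 853 with wild type p53 at 6 h (adjusted p = 0.0011), and how reads over both genes were assigned is not given in the sources used here. ENSG00000265179 lies antisense to ADCYAP1, the gene of the PACAP ligand, whose receptor gene ADCYAP1R1 is among the 51. ADCYAP1 had 1, 4 and 4 counts with pGFP and 14, 15 and 26 with wild type p53 at 6 h (log2 difference 2.53 ± 0.58 SE, adjusted p = 0.0054), and 103, 70 and 51 with wild type p53 at 24 h. SOX21 overlaps SOX21-AS1, ENSG00000250770 overlaps LINC02827, ENSG00000272482 lies 690 bases from DHRS3, and LGI3 lies 8056 bases from BMP1. These neighbours were named after their values were seen, as the nearest genes within 10 kb.

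Of 26 genes on a p53 pathway list that included CDKN1A and MDM2, 23 were called higher with wild type p53 at 6 h, 0 with RW mutant p53 at 6 h, 24 with p53 O6-meG and 22 with p53 TM against RW mutant p53 at 24 h. By the fit of all 30 libraries, 2 were called lower with p53 TM than with p53 O6-meG. The median log2 difference of the 26 was -0.29 beside -1.78 for the 51 genes. The median level with wild type p53 at 6 h was 81.3% of that at 24 h, beside 19.1%, and the p53 TM level was a median of 81.8% of p53 O6-meG, beside 29.7%. These medians are descriptions, and the difference between the lists was not tested. The 51 genes were chosen to lack a basal level and by the wild type level at 24 h that is the divisor of the first share, so part of that gap was set by the choice. CDKN1A, a CDK inhibitor, was higher by 2.67 ± 0.45 (log2, SE) with wild type p53 at 6 h (adjusted p = 0.00056), and MDM2, the ubiquitin ligase of p53, by 2.75 ± 0.39 (adjusted p = 0.0002). Against p53 O6-meG at 24 h their log2 differences with p53 TM were -0.76 ± 0.42 (adjusted p = 0.3) and -0.26 ± 0.37 (adjusted p = 0.75). The fit behind these values included the libraries of conflicting title, and this list was not counted without them. CDKN1A had 369, 422 and 289 CPM with p53 TM and 529, 781 and 518 with p53 O6-meG, without overlap. MDM2 had 1750, 1510 and 1050 CPM against 1910, 1890 and 1350, with overlap. Fitted without those libraries, the SE of CDKN1A was 0.18 for p53 O6-meG at 24 h against 6 h. Against wild type p53, the study reported CDKN1A as repressed by p53 TM at both times.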

How the data were processed

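Total RNA of sorted H1299 cells was sequenced in 30 libraries. The authors aligned single reads to hg38 with STAR 2.5.3a and made the deposited raw counts per gene on GENCODE v27 with featureCounts (Subread 1.5.2), without normalization. A deposited normalized table was not used. Library totals were 32302699 to 71950532 counts.

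Counts were fitted with edgeR 4.0.16 in R 4.3.3 (filterByExpr, TMM, quasi-likelihood, all 10 groups, all 30 libraries), with Benjamini-Hochberg adjustment over all genes tested. Genes with an adjusted p below 0.05 that changed 2-fold or more were called. SEs come from the estimate and its F statistic. Folds against silent groups are ratios of summed counts over TMM-scaled totals with exact conditional binomial 95% intervals, or a bound at 3 counts over the group where that group is at 0. Coordinates, exon lengths and gene types are from GENCODE v44 (hg38), which matched 38904 of 39359 genes. The fit and the motif search were tested on simulated data.

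Members and gene lists were chosen with earlier results of these data known. Genes named with full values are, by rule, the 10 highest in CPM with p53 O6-meG at 24 h, the 5 smallest p and the 5 lowest shares with wild type p53 at 6 h, the 5 smallest p for p53 TM against p53 O6-meG at 24 h, genes at the limits, adjacent genes, and up to 4 per symbol group. Others were named to cover each role. The comparison of p53 O6-meG at 24 h and 6 h was added after seeing the data. At 24 h the same-numbered libraries deviated together in 30 of 30 pairs of groups (correlation 0.367 to 0.834), and at 6 h in 8 of 9 (0.08 to 0.533). Differently numbered libraries at 24 h did so in 14 of 60 pairs (-0.696 to 0.427). Deviations were taken from the mean of 3 libraries, so positive correlations of same-numbered libraries push the others negative. The second count is therefore no independent contrast. The main tests carry no term for this pairing, and the replicate block was run as an alternative. No 2 libraries of a group agreed within sampling noise (chi-square per degree of freedom 6.08 to 47.4). Alternatives were other size factors, DESeq2 1.42.0, no filter, only the groups compared, the replicate block, leaving out each library in turn, leaving out the 6 libraries that chose the genes, and leaving out or moving those of conflicting title. Some genes are not reported here.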

Additional observations from a re-analysis of the deposited data

Results flagged for a closer look

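The difference between p53 TM and p53 O6-meG changed between 6 h and 24 h for 5 of the 51 genes, by an interaction term in edgeR with both libraries of conflicting title left out: ANKRD65, ARHGAP27P2, ENSG00000250770, INPP5D and RGMA. The difference was smaller at 24 h in all 5, beside 0.38% of 21335 genes called in that direction. In either direction 25 of the 51 had an unadjusted p under 0.05, beside 1466 of the 21335 genes. With those libraries included it was called for 0 genes as labelled, and for 10 once both were moved to the other group. RGMA had 0 and 0 counts with p53 TM and 55 and 34 with p53 O6-meG at 6 h, then 152, 71 and 74 against 306, 312 and 172 at 24 h (adjusted p = 0.033). INPP5D had 2 and 5 against 64 and 46, then 148, 127 and 125 against 222, 331 and 178 (log2 change of the difference 3.16 ± 0.56 SE, adjusted p = 0.0043). ANKRD65 had 0 and 1 against 34 and 29, then 24, 14 and 12 against 36, 67 and 24 (adjusted p = 0.017). ARHGAP27P2 had 0 and 0 against 33 and 19, then 57, 40 and 28 against 87, 80 and 40 (adjusted p = 0.017). ENSG00000250770 had 1 and 0 against 51 and 39, then 79, 59 and 47 against 175, 227 and 109 (adjusted p = 0.0061). RET moved the other way without passing (6 and 10 against 7 and 4, then 12, 10 and 11 against 29, 68 and 37, adjusted p = 0.069). Of the 26 genes of the p53 pathway list 12 were called for the same change, CDKN1A (adjusted p = 0.0052) and MDM2 (adjusted p = 0.0012) among them. The comparison was chosen after seeing the data.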

How the results depend on the processing

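The number of genes follows the limits: 8 with at most 0 pGFP counts, 107 with at most 10, 92 with at least 15 wild type counts, 7 with at least 100, and 33 on depth-scaled counts. Genes called higher with p53 TM than with RW mutant p53 at 24 h were 23 in a fit of only the groups compared, which kept only 23 of the 51, and 25 to 42 when each library was left out. Genes called lower with p53 TM than with p53 O6-meG at 24 h were 14 in a fit of only the groups compared, 5 with DESeq2 and 13 to 30 when each library was left out. With the replicate block this count was 28, and with the conflicting libraries left out or moved it was 38. The replicate block changed no count by more than 1.5 times, and the calls it added are LGI3, ENSG00000262714 and MLC1 with wild type p53 at 6 h (adjusted p = 0.047, 0.04 and 0.042), and SOX21 and SULF2 with p53 TM at 24 h. The change of the difference between p53 TM and p53 O6-meG was called for 10 genes with the conflicting libraries moved and for 0 with them as labelled, beside 5. With wild type p53 at 6 h, 34 to 43 were called when each library was left out, 46 with the block and 29 in a fit of only the groups compared, which kept 29. Leaving out the 6 libraries that chose the genes, an alternative added after seeing the data, changed no count by more than 1.5 times. Among 555 alternative values for named genes, 507 kept their side of the threshold, 30 lost a call, 18 gained one and 0 changed sign. The cause of these changes was not tested.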
